A study of Homo sapiens with 36 samples.

Results

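The genes BHLHE40, BHLHE41, PER1, PER2, CRY1, CRY2, CLOCK and NR1D1 were followed in peak lists of tagged HIF-α protein. All 8 code for core or accessory components of the circadian clock, and they were taken with the DNA around them. A peak was assigned to a gene where its summit, the base of highest signal, lay in the gene body or within 100 kb on either side. Of 213711 peaks in 18 lists, 639 met this rule, 618 of them in the 15 lists from tagged cells and 21 in the 3 lists from untagged cells. A protein-coding gene window of this kind was drawn for 20007 genes in all.

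The lists come from Cut&Run, in which an antibody directs a nuclease to a chromatin protein and the released DNA is sequenced. The cells were 786-O, a clear cell renal cell carcinoma line without functional VHL, where HIF-2α escapes oxygen-dependent breakdown, and without intact HIF-1α. WT cells had no tag and served as the control. HIF-2a KIN cells, which are 1 clone (A31), carried a V5-Halo tag on endogenous HIF-2α. The other 4 lines stably expressed a V5-Halo-tagged protein from an L30 promoter, on top of the untagged endogenous HIF-2α that WT cells also have. These proteins were HIF-2a, HIF-1a and the chimeras HIF-2a/1a and HIF-1a/2a, where the first number names the source of the DNA-binding domain (DBD), at the N-terminus, and the second that of the intrinsically disordered region (IDR), at the C-terminus. There were 3 anti-V5 libraries for each line, and the background for each was an IgG library with its own line and number. Nothing in the labels says that libraries of a line came from separate cultures, so p-values measure only the spread between these libraries. The comparisons ask whether a gene's surroundings were bound with the tag and not without it, and whether binding followed the IDR or the DBD.

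In the clock, the activators CLOCK and BMAL1 bind E-boxes as a dimer and drive the genes of their own repressors. PER and CRY proteins close this loop by inhibiting the dimer. NR1D1 (REV-ERBα) represses BMAL1 transcription, while BHLHE40 (DEC1) and BHLHE41 (DEC2) are basic helix-loop-helix repressors that compete for E-boxes. BHLHE40 is also a long-known hypoxia-inducible gene, and a HIF dimer binds the hypoxia response element (HRE), whose core letters are ACGTG or GCGTG, the first of which is contained in the E-box CACGTG.

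The stretch before the BHLHE40 and BHLHE41 start sites is printed because the strongest region of each gene had its summit there. Sequences are from RefSeq (GRCh38.p14), 5′ to 3′ on the strand of the gene, from 250 bases before the start to the base before it, and capitals mark every HRE core on either strand.

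BHLHE40, chr3:4979187-4979436, + strand: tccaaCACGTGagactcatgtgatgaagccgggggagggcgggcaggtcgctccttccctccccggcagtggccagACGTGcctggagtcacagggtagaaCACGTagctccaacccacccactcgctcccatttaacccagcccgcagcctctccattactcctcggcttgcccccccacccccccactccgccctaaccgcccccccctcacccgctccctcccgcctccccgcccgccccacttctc
BHLHE41, chr12:26125038-26125287, - strand: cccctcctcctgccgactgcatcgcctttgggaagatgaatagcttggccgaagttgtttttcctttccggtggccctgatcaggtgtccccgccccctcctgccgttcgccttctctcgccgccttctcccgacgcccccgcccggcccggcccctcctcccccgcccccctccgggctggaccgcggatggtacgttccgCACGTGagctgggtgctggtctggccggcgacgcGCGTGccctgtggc

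The BHLHE40 stretch holds 3 separate runs of core letters and the BHLHE41 stretch 2, and each holds 1 E-box, which reads as a core on both strands. In the 300-base promoters of RefSeq, which run 50 bases past the start, all 8 genes were found. An HRE core was present in 9 of their 10 promoters and an E-box in 3, against 48.4% and 7.26% of all 35116 promoters. The next sequences are the summit and the 50 bases on either side of it, on the + strand of hg38, of the pair of BHLHE40 regions that were called in every tagged library and in no WT library. Capitals again mark the HRE core.

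BHLHE40, 15735 bp downstream of the start, chr3:4995122-4995222: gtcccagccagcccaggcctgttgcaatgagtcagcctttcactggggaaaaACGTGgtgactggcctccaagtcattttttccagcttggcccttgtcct
BHLHE40, 44098 bp downstream of the start, chr3:5023485-5023585: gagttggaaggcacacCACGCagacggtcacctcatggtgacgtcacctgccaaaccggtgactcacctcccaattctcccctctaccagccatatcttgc

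Both windows also hold the AP-1 motif TGANTCA (N is C or G), as tgagtca in the nearer and tgactca in the farther one. Within 50 bp of the summit this motif occurred in 8.29% of all 25341 regions called in 2 or more tagged libraries.

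Lists differed widely in length, from 3984 to 20808 peaks in tagged libraries and 392, 9508 and 743 in WT replicates 1, 2 and 3. The depth, worked out from the deposited fold and p columns, lay between 0.241 and 0.625 fragments per base. WT replicate 2 supplied 16 of the 21 WT peaks near the 8 genes, and 10 of the 11 regions near these genes with any WT call were called in it. The share of a list that fell near the 8 genes was 0.253 to 0.465% in tagged libraries. In WT it was 0.168% of the 9508 peaks of replicate 2, below every tagged library. It was 0.255% in replicate 1 (1 of 392 peaks), inside the tagged range. In replicate 3 it was 0.538% (4 of 743 peaks), above every tagged library. Short lists could still hold many of these peaks, as HIF-2a KIN replicate 3 had 34 in a list of 7311.

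BHLHE40 had the most peaks of the 8 genes. Its window held 7, 13 and 11 peaks in HIF-2a KIN, 12, 13 and 9 in HIF-2a, 12, 12 and 10 in HIF-2a/1a, 11, 12 and 10 in HIF-1a, and 15, 12 and 12 in HIF-1a/2a libraries. WT libraries had 0, 4 and 0, so no tagged library overlapped WT. The mean of 11.4 ± 1.88 (SD, n = 15) tagged peaks was reached by 0.855% of all gene windows, or 171 of them, while the median window had 1.60. No other protein-coding gene overlaps this window. PER1, which lies in a gene-dense stretch with 11 other protein-coding genes in its window, came next with 9.87 ± 3.83 (SD, n = 15) peaks and 341 windows at or above it. BHLHE41 had 3 to 6 peaks in each tagged library against 0, 1 and 2 in WT, a mean that 16.7% of windows reached. The plot of peaks by line shows that CRY2 had the fewest, with no peak in 4 tagged libraries, 2 of HIF-2a KIN and 2 of HIF-2a.

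**Figure D1:**
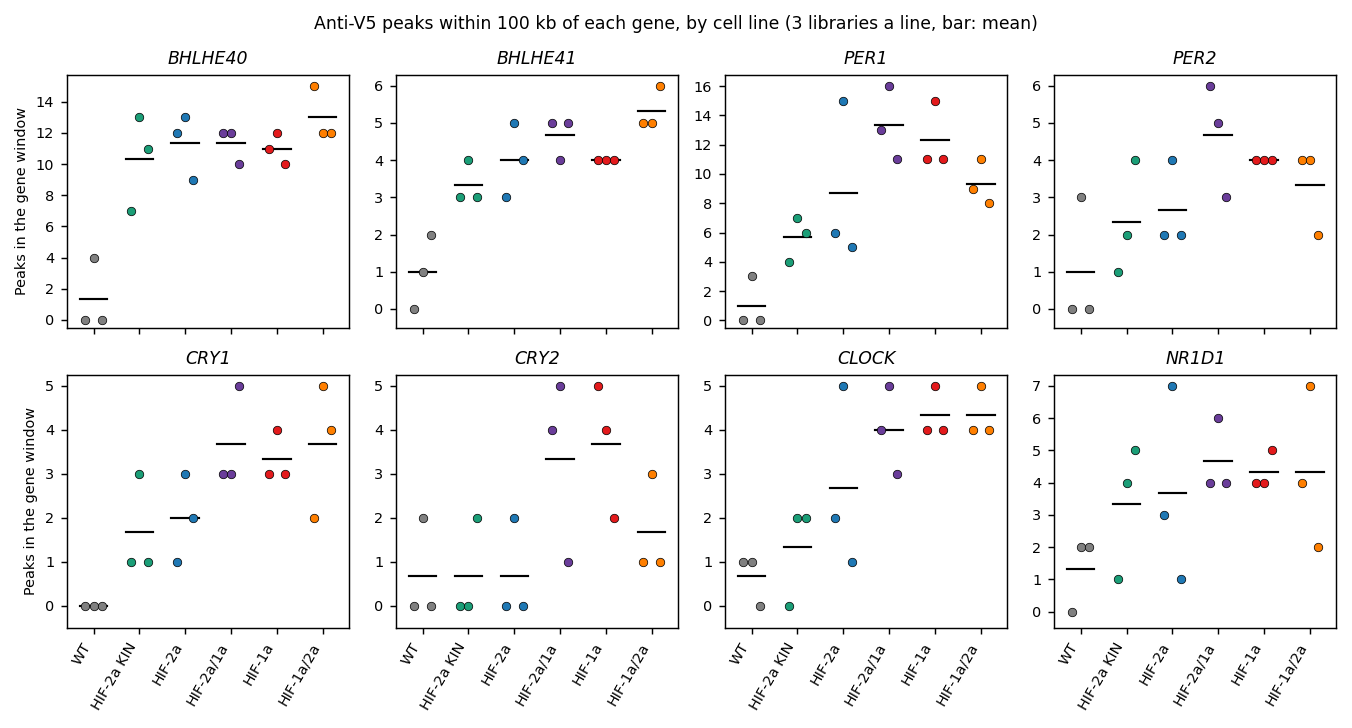
Number of anti-V5 peaks in each gene window (vertical axis, a separate scale for each gene) in the 3 libraries of each line, with the line's mean as a bar. In BHLHE40 the tagged libraries sit between 7 and 15 and WT at 0 or 4.

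Whether a window held any peak was compared between tagged and WT libraries with a two-sided Fisher's exact test, adjusted over all 20007 windows by the Benjamini-Hochberg method. CRY1 passed, with a peak in 15 of 15 tagged and 0 of 3 WT libraries (exact p = 0.00123, adjusted p = 0.0232), as did 5.29% of all windows. That p is the smallest the exact test allows for 15 against 3. BHLHE40, PER1 and PER2 had a peak in 15 tagged libraries and in WT replicate 2 (adjusted p = 0.0749 in the exact test), so 4 of 8 genes were under 0.05 before adjustment, against 30.8% of all windows. BHLHE41 and NR1D1 had 15 tagged and 2 WT libraries, CLOCK 14 and 2, and CRY2 11 and 1. A peak in all tagged libraries was seen for 6 of 8 genes and for 26.6% of windows. The CRY1 call was lost in the exact test without WT replicate 1 or without WT replicate 3, where 0 of all windows passed. Without WT replicate 2, 4 genes passed, against 20.1% of all windows. CRY1 also missed the threshold with 10 kb in place of 100 kb (11 tagged libraries, adjusted p = 0.254), within 1 kb of a TSS (adjusted p = 0.449) and with lists limited to 3984 peaks (14 tagged libraries, adjusted p = 0.0703), all in the exact test. PER1 was the gene that passed with 10 kb and with the limited lists, against 3.46% and 5.33% of windows.

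Peaks of different libraries that overlapped were joined into regions, and those called in 2 or more libraries were kept. There were 25783 regions in all and 58 in the windows of the 8 genes, namely 13 for BHLHE40, 17 for PER1, 6 for CLOCK, 5 each for BHLHE41, CRY2 and NR1D1, 4 for CRY1 and 3 for PER2. A further 44 peaks near these genes lay in no such region. Of the 58 summits, 31 lay in no annotated protein-coding gene or gene of the set, 18 in introns, 6 in UTRs and 3 in other exons. The nearest transcription start site (TSS) was that of the gene itself for 26 regions and of another protein-coding gene for 32, and 12 of those 32 were within 1 kb of it. A TSS here is the start of any annotated protein-coding transcript, internal ones included, and distances are to the nearest such start of the gene. The windows of 1 kb around a TSS took the starts of all transcripts of a gene. Only BHLHE40 had nearly all of its regions nearest to its own TSS, 12 of 13.

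Of the 58 regions, 12 were called in all 15 tagged libraries, against a background of 6.67% of all regions. Among these, 7 were called in no WT library and passed Fisher's exact test over all regions (exact p = 0.00123, adjusted p = 0.0263). No other pattern of calls passed, so the pass restates this pattern, and the background for the same call was 4.66%. With regions of a single library kept as well, 0 of 102 regions of these genes passed, and 0 of all 61215. The 7 regions were in the windows of BHLHE40 (2 regions), BHLHE41 (1), PER1 (3) and CRY1 (1). At least 1 region of this kind was found for 4 of 8 genes and in 16.8% of all windows. With each list limited to its top 3984 peaks by fold, 3 of 30 regions of these genes passed, against 9.86% of all regions. WT replicates 1 and 3 stayed shorter than that limit. Leaving out WT replicate 1, 2 or 3 left 0, as the smallest exact p is then larger. At the other end, 23 of the 58 regions were called in 5 or fewer tagged libraries, and the map of regions by position shows these at all distances. The share of all regions with so few calls was not counted, so 23 cannot be read as many or few.

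**Figure D2:**
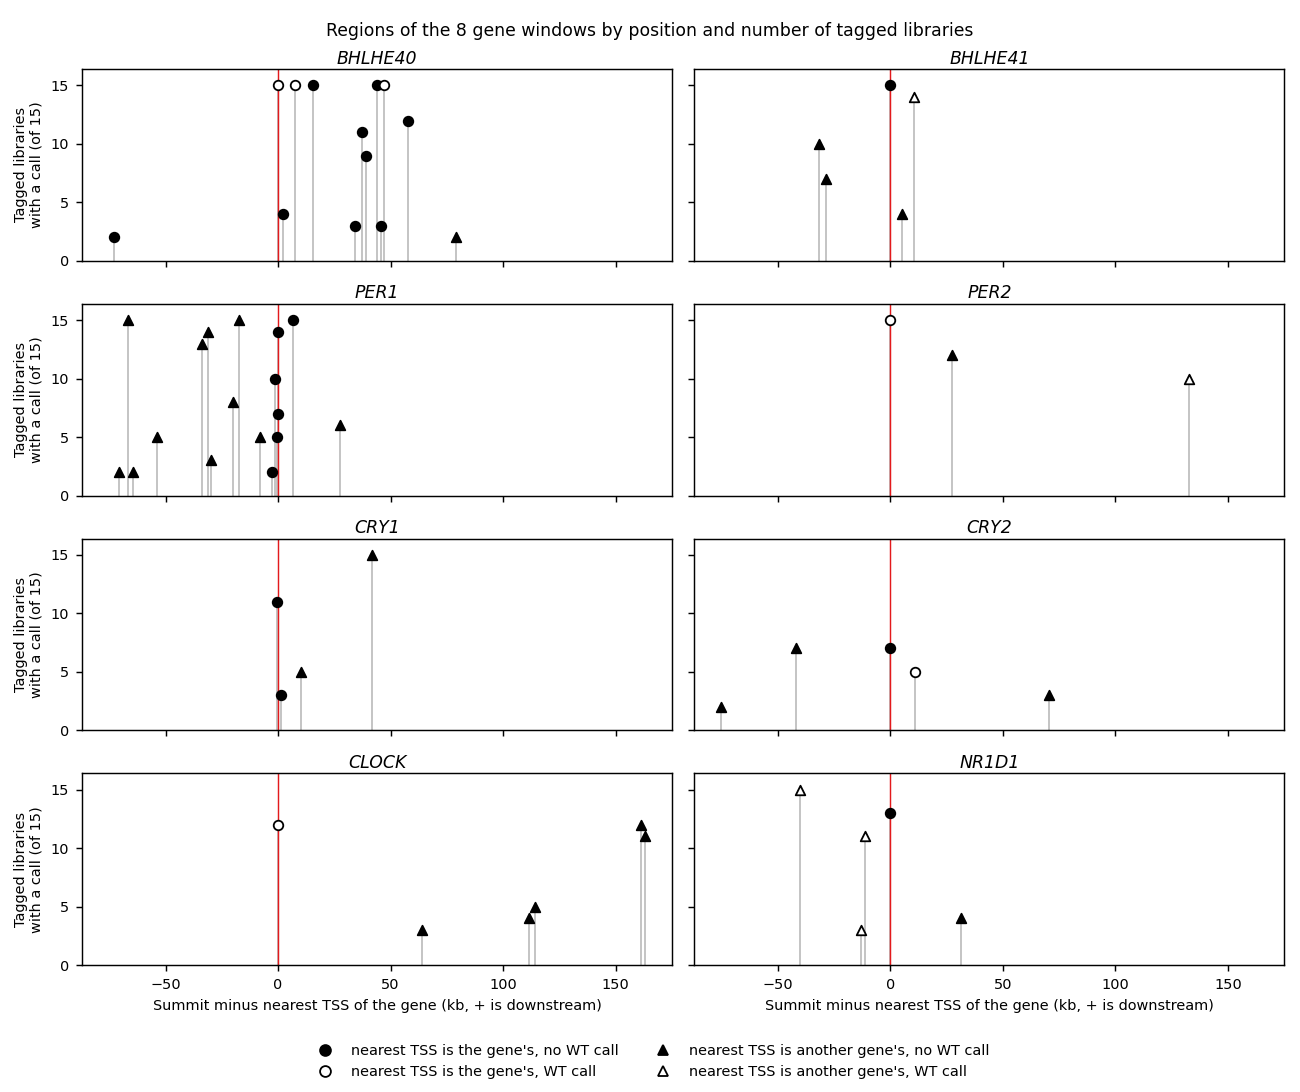
Each region by the distance of its summit from the nearest transcript start of the gene (horizontal axis, kb, downstream positive) and the number of tagged libraries with a call (vertical axis, of 15). Circles are nearest to the gene's own TSS and triangles to another gene's, and open symbols have a WT call. BHLHE40 has 5 regions at 15 libraries, all downstream or at the TSS.

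The BHLHE40 TSS region (chr3:4976211-4980864, summit 109 bp before the TSS) had the lowest median rank of the 58 regions, 549, where rank 1 is the highest fold enrichment of a list. Fold enrichment here is the fragment pileup at the summit over the local background, each with 1 added. It was 23.0, 33.1 and 24.3 in HIF-2a KIN, 32.5, 45.0 and 27.7 in HIF-2a, 50.3, 39.2 and 14.8 in HIF-2a/1a, 25.5, 32.5 and 19.8 in HIF-1a and 31.2, 50.5 and 17.1 in HIF-1a/2a libraries. WT replicate 2 also called it, at 5.71-fold, below every tagged library. Ranks were 197, 415 and 371 in HIF-2a KIN and 276, 703 and 230 in HIF-2a libraries. They lay between 333 and 2234 in the other 3 lines, whose lists were longer on average but not in every library. As a share of the list, ranks were 3.15 to 5.07% in HIF-2a KIN and 3.40 to 4.19% in HIF-2a. The other 3 lines spanned 1.96 to 18.1%. The summits of the tagged libraries had an interquartile range of 1.5 bp, and the nearest HRE core, the third run of capitals in the BHLHE40 stretch above, was centred 38 bp from the summit.

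A further 4 BHLHE40 regions were called in every tagged library, at 7675, 15735, 44098 and 47113 bp downstream of the TSS, past the end of the gene. The region at 7675 bp (chr3:4983193-4988272) was among the highest of the HIF-2a KIN lists, with ranks 180, 170 and 17 and folds of 24.3, 56.6 and 68.1. In HIF-2a libraries its folds were 20.3, 45.6 and 8.91 with ranks 676, 678 and 2032, and WT replicate 2 had 6.33. The folds of the HIF-2a and HIF-2a KIN libraries overlapped. As a share of the list the ranks overlapped too, at 0.233 to 4.52% in HIF-2a KIN and 3.28 to 34.4% in HIF-2a. The WT replicate 2 rank, 26.8% of its list, lay inside the HIF-2a range.

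The region at 44098 bp (chr3:5021452-5024331) was called in no WT library and had its highest fold in HIF-2a/1a, at 34.1, 49.4 and 87.7. Its folds were 7.24, 29.5 and 15.0 in HIF-2a KIN, 19.7, 34.3 and 14.6 in HIF-2a, 15.3, 32.7 and 22.9 in HIF-1a, and 16.8, 31.0 and 10.5 in HIF-1a/2a libraries. The HIF-2a/1a libraries overlapped those of HIF-2a in fold only through their lowest value. HIF-2a/1a also had the highest mean depth, 0.454 fragments per base, and whether depth entered was not tested. How many of all regions come this near to separating was not counted. As a share of the list, the HIF-2a/1a ranks were 0.109 to 4.28%, and HIF-2a KIN replicate 2, at 3.79%, lay inside that range. The region at 15735 bp (chr3:4992585-4996109), also without a WT call, was weaker, with folds from 7.02 to 24.0 and a median rank of 3261.5. An HRE core was centred 4 bp from its summit, the capitals in the sequence above, and summits of the libraries had an interquartile range of 26.5 bp. The region at 47113 bp (chr3:5025999-5027801) ranged from 6.68 to 38.4-fold and was called in WT replicate 2 at 5.46-fold. Its WT replicate 2 rank, 40.9% of the list, lay inside the tagged range of 2.85 to 56.8%.

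BHLHE41 had 1 region called in every tagged library, with its summit 140 bp before the TSS (chr12:26122397-26127153) and no WT call. Its fold enrichment was 11.3, 10.9 and 11.2 in HIF-2a KIN and 10.9, 21.6 and 8.08 in HIF-2a libraries. It was 36.4, 51.3 and 24.0 in HIF-2a/1a, 30.7, 39.2 and 15.3 in HIF-1a, and 18.5, 22.6 and 22.9 in HIF-1a/2a libraries. In these folds all HIF-2a/1a libraries lay above all libraries of HIF-2a KIN, HIF-2a and HIF-1a/2a, while HIF-1a overlapped HIF-2a and HIF-1a/2a. Fold moves with depth, and mean depth was 0.454 fragments per base in HIF-2a/1a. It was 0.303 in HIF-2a KIN, 0.372 in HIF-2a, 0.363 in HIF-1a and 0.332 in HIF-1a/2a. Whether depth entered this separation was not tested, and the share of all regions that separate this way was not counted. The nearest HRE cores, those of the E-box in the stretch above, were centred 94 and 95 bp from the summit, whose interquartile range over libraries was 40.0 bp. The other 4 BHLHE41 regions were nearest to the TSS of SSPN, a gene of the dystrophin-associated complex that lies beside it. Among them, the region 10579 bp downstream was called in 14 tagged and 2 WT libraries.

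**Figure D3:**
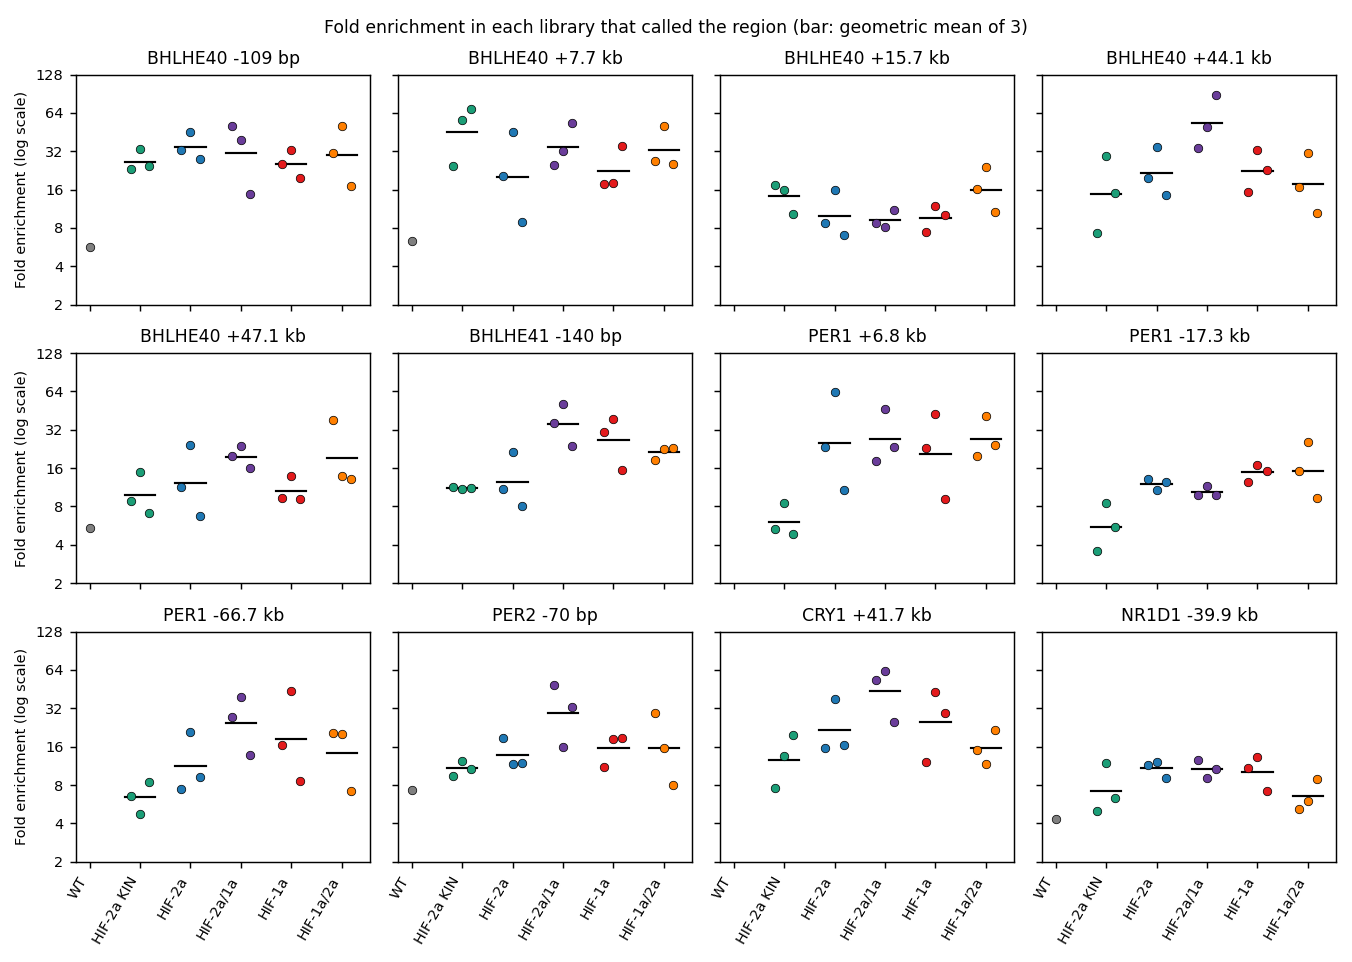
Fold enrichment (log scale) at the 12 regions called in all 15 tagged libraries, named by gene and distance of the summit from its nearest transcript start. Points are libraries with a call and bars are geometric means of 3. The BHLHE40 TSS region lies between 14.8 and 50.5 in all tagged libraries, and the BHLHE41 TSS region is at 8.08 to 21.6 in HIF-2a and at 24.0 to 51.3 in HIF-2a/1a.

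Among the period genes, PER1 had 3 regions called in all tagged and no WT libraries, of which the one at chr17:8138651-8139831 lay past the 3′ end of the gene, 6834 bp from an internal transcript start and 17316 bp from the 5′ end of the gene. Counting only 5′ ends of genes, HES7 was nearer to it, at 15084 bp. Folds at this region were 5.35, 8.51 and 4.85 in HIF-2a KIN, 23.6, 63.5 and 10.7 in HIF-2a, 18.1, 46.4 and 23.3 in HIF-2a/1a, 23.1, 42.4 and 9.09 in HIF-1a, and 19.8, 40.8 and 24.3 in HIF-1a/2a libraries. Every library of the exogenous lines lay above every HIF-2a KIN library in fold, which moves with depth. HIF-2a KIN had the lowest mean depth of the tagged lines, 0.303 fragments per base against 0.332 to 0.454. The share of all regions that separate this way in fold was not counted. As a share of the list the ranks overlapped, at 29.7 to 80.8% in HIF-2a KIN and 1.78 to 38.3% in the exogenous lines. The region held no HRE core within 100 bp of the summit, and 3 in the whole region. The other pair of PER1 regions, 17299 and 66724 bp upstream of the nearest transcript start, were nearest to TMEM107 and AURKB, the Aurora B kinase. The region 178 bp before a PER1 TSS and 77 bp before the 5′ end of the gene (chr17:8155377-8157282) was called in 14 tagged libraries, all but HIF-2a KIN replicate 1, with folds of 3.90 to 23.3. It is shown because it was 1 of 2 regions of the set with an E-box within 50 bp of the summit, and its summit with 50 bases on either side, on the + strand, is this, with HRE cores in capitals.

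PER1, chr17:8156533-8156633: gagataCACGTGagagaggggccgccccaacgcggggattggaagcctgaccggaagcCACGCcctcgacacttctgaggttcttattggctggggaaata

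PER2 had a TSS region (chr2:238285781-238289668, summit 70 bp before the TSS) in all tagged libraries. Its folds ran from 8.03 in HIF-1a/2a replicate 3 to 48.6 in HIF-2a/1a replicate 1, with a median of 15.8, and WT replicate 2 called it at 7.28-fold. No tagged library was below that WT value in fold. As a share of the list, the WT replicate 2 rank of 18.8% lay inside the tagged range of 2.09 to 46.1%. A second PER2 region, 27408 bp downstream of the TSS and inside a PER2 intron, was called in 12 tagged and no WT libraries.

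CRY1 and CRY2 code for cryptochromes, and neither gene's own TSS region was called in all tagged libraries. The CRY1 region called in all tagged and no WT libraries (chr12:106954831-106957059) was 41658 bp downstream of an internal CRY1 transcript start, 137668 bp from the 5′ end of CRY1 and 14 bp from a TSS of TMEM263, with its summit in a TMEM263 UTR. Folds there were 7.59, 13.4 and 19.8 in HIF-2a KIN and 12.2 to 63.4 in HIF-2a, HIF-2a/1a and HIF-1a libraries, and 15.2, 11.8 and 21.7 in HIF-1a/2a. An HRE core was centred 13 bp from the summit, whose interquartile range was 39.5 bp, and is shown here on the - strand with 10 bases on either side. The pass of the CRY1 window in the test above thus rests on a TMEM263 region, in the sense that no other CRY1 region was called in all tagged libraries.

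CRY1 window, chr12:106955856-106955880: ctggctgcggACGTGgcgcccgacg

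The region at the CRY1 TSS itself, 468 bp upstream, was called in 11 tagged libraries and none of WT (adjusted p = 0.238 in Fisher's exact test). CRY2 had no region in all tagged libraries. Its TSS region, 41 bp from the start, was called in 7, and a region 102 bp from the TSS of SLC35C1, a Golgi GDP-fucose transporter, was also called in 7.

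CLOCK, the only activator of the set, and NR1D1 were bound at their TSS in most but not all tagged libraries. The CLOCK TSS region was called in 12 tagged libraries, 2 of HIF-2a KIN, 1 of HIF-2a and all 9 of the other lines, and in 1 WT library, with a median fold of 6.43. The CLOCK region with the best ranks was 161281 bp downstream of an internal transcript start and 198163 bp from the 5′ end of CLOCK, in an intron of SRD5A3 and 2334 bp from the start of that gene, a steroid reductase of dolichol synthesis. It was called in all 12 exogenous and in no HIF-2a KIN or WT libraries, with a median fold of 15.3. Of all 25783 regions, 2720 were called in all 12 exogenous libraries. The share that also lacked HIF-2a KIN and WT calls was not counted. The NR1D1 TSS region (chr17:40098972-40101537) was called in 13 tagged and no WT libraries, with a median fold of 8.57. An HRE core was centred 7 bp from the summit of the merged region, but the summits of single libraries had an interquartile range of 1473 bp. The NR1D1 region in all tagged libraries was 41 bp from the TSS of CASC3, part of the exon junction complex, and was also called in WT replicate 2. Its WT replicate 2 rank, 68.5% of the list, lay inside the tagged range of 16.2 to 80.6%.

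HRE cores within 50 bp of the summit were found in 18 of the 58 regions, 31.0% (95% Clopper-Pearson interval 19.5 to 44.5), and in 24.7% of all regions called in 2 or more tagged libraries. Within 100 bp the share was 65.5% for the 58 and 45.9% for all regions, and over the whole region 79.3% and 76.5%. Away from the summit, windows 50 bp to either side of the points 1 kb left and right of it were also searched. These held a core in 19.0% and 22.4% of the 58 regions, and in 14.4% and 14.1% of all regions. The intervals treat regions as independent and cover counting error only. Among regions called in all 15 tagged and no WT libraries, 3 of 7 of the set and 34.1% of all had a core within 50 bp. An E-box lay within 50 bp in 2 of 58 regions, or 3.45%, and in 2.75% of all regions. The AP-1 motif was in 2 of 58, the BHLHE40 regions printed above, and no match says only that the letters are not in that window.

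Whether calls followed the IDR or the DBD was tested on the 4 exogenous lines, 6 libraries against 6. No window or region passed for either part, over all genes or over the 8 (Fisher's exact test, background 0%). The smallest exact p possible was 0.00216, and 1117 regions or 867 windows at that p would have been needed for any to pass. Before adjustment, 0 of 8 windows were under 0.05 for the IDR, against 0.705% of all windows, and 0 for the DBD, against 0.235%. For the IDR, 1 of 58 regions was under 0.05 before adjustment, against 1.39% of all regions. This was the CRY2-window region at the SLC35C1 start, called in 6 libraries with the HIF-1 IDR and 1 with the HIF-2 IDR (exact p = 0.0152, adjusted p = 1.0). For the DBD it was also 1 of 58, against 0.555%, a BHLHE41-window region in an SSPN intron called in 6 libraries with the HIF-1 DBD and 1 with the HIF-2 DBD (exact p = 0.0152, adjusted p = 1.0). Lists with the HIF-1 IDR held 12371 to 20808 peaks and those with the HIF-2 IDR 5906 to 20651. Of the 58 regions, 25 (43.1%) had more calls with the HIF-1 IDR, 9 (15.5%) with the HIF-2 IDR and 24 equal numbers, against 57.9% and 14.5% of all regions for the first and second. For the DBD, 22 (37.9%) had more calls with that of HIF-1 and 12 (20.7%) with that of HIF-2, against 42.3% and 24.8% of all regions.

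Fold enrichment was compared at the regions called in all 12 exogenous libraries, 2720 in all and 16 of the set, as quantile-normalized log2 fold in limma. A region in this set had to be called everywhere, so regions lost in a line are not in it. No region of the 8 genes passed for the IDR (limma adjusted p under 0.05 in 1.76% of regions), the DBD (2.90%), the HIF-2a against HIF-1a line (3.42%) or the interaction of IDR and DBD (0%). Before adjustment, 4 of 16 were under 0.05 for the IDR, 2 for the DBD, 2 for HIF-2a against HIF-1a and 0 for the interaction, against 16.0%, 16.5%, 17.5% and 5.11% of all regions. The median difference over the 16 regions was -0.08 for the IDR and 0.11 for the DBD on the log2 scale, beside -0.01 and 0.03 over all 2720. With fragments scaled to depth in place of fold, fewer of the 16 were under 0.05 before adjustment. The counts were 0 for the IDR, 0 for the DBD and 1 for HIF-2a against HIF-1a, beside 312, 166 and 235 of all 2720 regions.

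At the BHLHE41 TSS region, mean log2 fold was 4.16 ± 0.35 (SD, n = 6) with the HIF-2 IDR and 4.82 ± 0.50 (SD, n = 6) with the HIF-1 IDR. The difference of -0.66 had a 95% confidence interval from -1.33 to -0.00055 and did not pass adjustment (limma adjusted p = 0.310). The BHLHE40 region at 15735 bp differed in the opposite direction, 3.80 ± 0.32 (SD, n = 6) with the HIF-2 IDR against 3.12 ± 0.28 (SD, n = 6) with the HIF-1 IDR (limma adjusted p = 0.285), and this difference of 0.68 was 0.33 with fragments scaled to depth. The BHLHE40 TSS region differed by 0.42 for the IDR and 0.19 for the DBD, and both intervals spanned 0.

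For the DBD, the PER1 TSS region stood at 3.01 ± 0.45 (SD, n = 6) with the HIF-2 DBD and 3.88 ± 0.36 (SD, n = 6) with the HIF-1 DBD, a difference of -0.87 (limma adjusted p = 0.130). The BHLHE40 region at 44098 bp stood 0.75 higher with the HIF-2 DBD (limma adjusted p = 0.240). That value was 0.02 with fragments scaled to depth, 0.35 with -log10 p in place of fold and 0.45 without HIF-2a/1a replicate 3. The remaining differences under 0.05 before adjustment were for the IDR, -0.72 at the PER1-window region 31047 bp upstream (limma adjusted p = 0.267) and 0.77 at the CLOCK-window region in SRD5A3 (limma adjusted p = 0.253). With -log10 p in place of fold, which also reads depth, 3 of the 16 passed for the IDR, as did 569 of all 2720 regions, and among them were the BHLHE40 region at 15735 bp and the CLOCK-window region. A p that misses the threshold does not show that the proteins bound alike, and the plot of differences gives each interval.

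**Figure D4:**
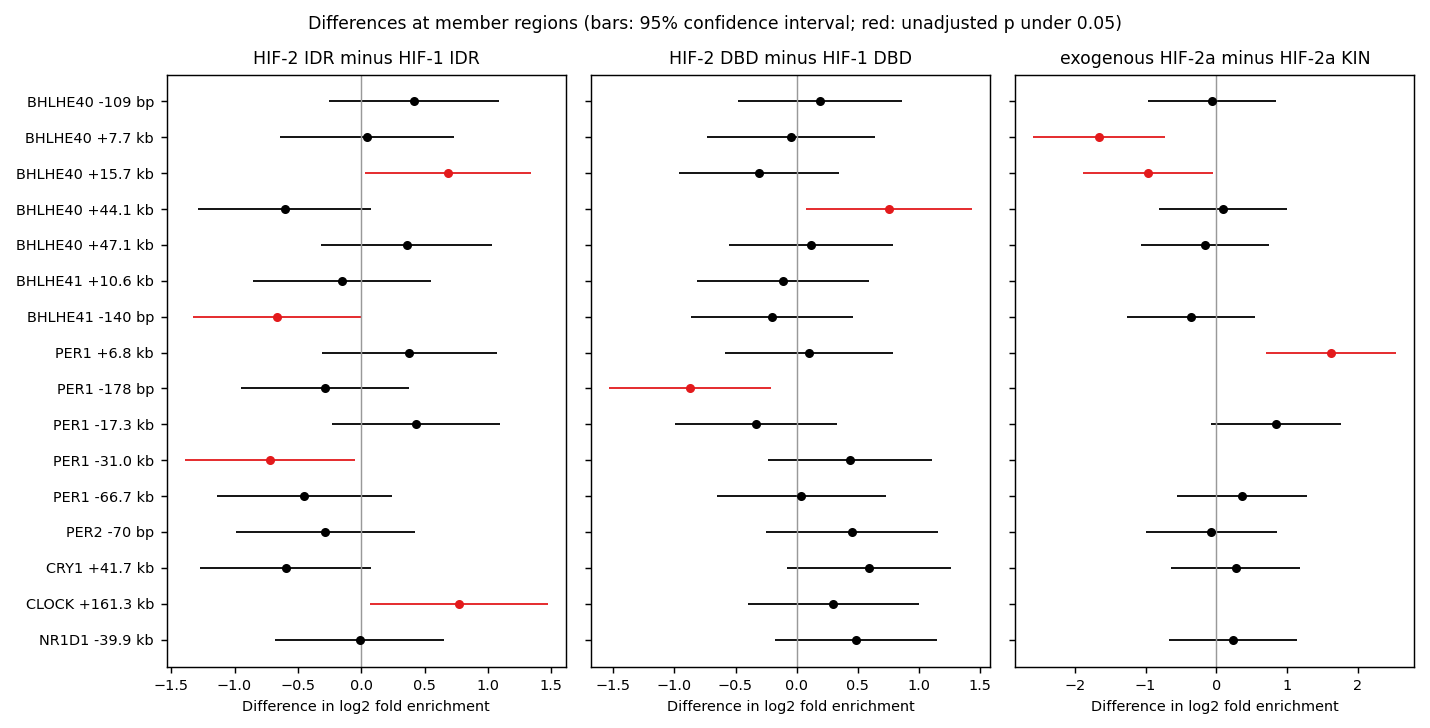
Difference in quantile-normalized log2 fold enrichment with its 95% confidence interval (limma) at the 16 regions called in all exogenous libraries for the IDR and the DBD, and at the 12 also called in all HIF-2a KIN libraries for exogenous HIF-2a minus HIF-2a KIN. Red marks an unadjusted p under 0.05. The BHLHE40 region at +7.7 kb and the PER1 region at +6.8 kb lie on opposite sides of 0 in the right panel.

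Exogenous HIF-2a was set against the endogenous protein of HIF-2a KIN at the 1815 regions called in all 6 libraries, 12 of them in the set. None of the 12 passed (limma adjusted p under 0.05 in 0.606% of regions), and 3 were under 0.05 before adjustment, against 11.0% of all. The PER1 region at 6834 bp was higher with exogenous HIF-2a by 1.63 ± 0.46 (SE) on the log2 scale (limma adjusted p = 0.0862). The BHLHE40 region at 7675 bp was lower by the same measure, -1.65 ± 0.46 (SE, limma adjusted p = 0.0862), and that at 15735 bp stood at -0.96 (limma adjusted p = 0.431). With fragments scaled to depth instead of fold these values were 0.75, -0.49 and 0.057, and the last was -0.63 in the fold fit without HIF-2a KIN replicate 1. HIF-2a KIN is 1 clone, so clone and expression from the endogenous gene cannot be told apart here.

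Other clock genes were counted from a list of 16: BMAL1, BMAL2, NPAS2, PER3, NR1D2, RORA, RORB, TIMELESS, CIART, DBP, TEF, HLF, NFIL3, CSNK1D, CSNK1E and BTRC. A peak in all tagged libraries was seen for 6 of 16 windows, against 26.6% of all, and 1 window passed Fisher's exact test of tagged against WT, that of TEF (15 and 0 libraries, exact p = 0.00123, adjusted p = 0.0232), as did 5.29% of all windows. None of the 16 was under 0.05 before adjustment for the IDR or the DBD. A region in all tagged and no WT libraries was in the window of 5 of 16, against 16.8% of all. These were TEF, with 2 to 8 peaks in each tagged library, PER3 with 1 to 3, NFIL3, a repressor that opposes DBP, TEF and HLF, with 1 to 11, and the clock kinases CSNK1D with 4 to 22 and CSNK1E with 3 to 12.

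The regions most like the BHLHE40 and BHLHE41 TSS regions were sought among the 1720 regions called in all 15 tagged libraries, by Pearson's r of quantile-normalized log2 fold over those libraries, counting 1 region for each nearest gene. For BHLHE40 they were regions nearest to FRMD4A (r = 0.742), CITED2 (0.730) and SPP2 (0.725). For BHLHE41 they were nearest to TSHB (r = 0.742), KDM7A (0.741) and KY (0.731). These values are the top of many and describe 15 libraries that share lines and depth, with no test.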

How the data were processed

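Cut&Run libraries of 6 cell lines were used as the peak lists that the authors deposited, 1 for each of 18 anti-V5 libraries. Per the labels and the study's methods, reads were aligned to hg38 with Bowtie2 2.3.4.1, and peaks were called with MACS2 against the matching IgG library (q threshold 0.01, duplicates kept, gaps up to 400 bp joined) and cleared of blacklisted sites with BEDTools 2.28.0. The deposited columns used were the fold ratio at the summit, the −log10 p and −log10 q values, and the summit position. Fragments and depth were solved from the deposited fold and p, which matched within 0.001 in 17 libraries. Genes were from GENCODE 44. Fisher's exact tests used SciPy 1.17.1 and fold tests limma 3.58.1, with adjustment over all windows or regions, and were tested on simulated data. The members and lists were chosen with earlier results of these data known. Named regions were, for each gene, that nearest to the TSS, that with most tagged calls (ties by rank), and any passing a test or under 0.05 before adjustment, the last chosen after their values were seen. Other regions are named as the gene's in all tagged libraries. Alternatives were flank, TSS windows, q, list length, merging, replicate block, scaling, motif window and leaving out each library. Some genes of the wider clock list are not reported here.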

Additional observations from a re-analysis of the deposited data

How the results depend on the processing

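The count of genes whose window passed tagged against WT, 1, became 0 with windows of 1 kb around a TSS, 2 at −log10 q of 5 or more (13.9% of all windows) and 0 with the replicate block, where 0 of all windows passed. Leaving out single libraries gave 0 to 4. The count of regions, 7, became 3 in lists of equal length (9.86% of all regions), 0 with the replicate block, as for all regions, and 0 when regions of a single library were added. Leaving out single libraries gave 0 to 9, with 0 without WT replicate 1, WT replicate 2 or WT replicate 3. For IDR and DBD the counts of windows and regions were 0 in every alternative run, but the smallest exact p of 6 against 6 left little room for any other count. Counts of fold enrichment were 0 other than with −log10 p in place of fold. That setting called 3 regions for the IDR, among 569 of 2720, 1 for the DBD among 402 and 3 for HIF-2a against HIF-1a among 581. Its IDR calls were PER1 31047 bp upstream (-0.86), BHLHE40 at 15735 bp (0.90) and CLOCK at SRD5A3 (1.07), and its DBD call was the PER1 TSS region (-1.22). The cause was not tested. Against HIF-2a KIN, the BHLHE40 value at 15735 bp turned from -0.96 to 0.057 with depth-scaled fragments. The share of regions with an HRE core moved from 31.0% to 65.5% within 100 bp and 79.3% in the whole region, where the window searched is longer. Of 131 alternatives for 9 named differences, 126 kept direction and side of the threshold, and values that moved by over 1.5 times are given beside the result. Replicate numbers were not taken to pair the libraries, since only 3 of 18 same-numbered pairs correlated over 0.1 (range 0.0111 to 0.148, median 0.0573). Other pairs had a median of -0.0352, and all 12 libraries were closest to their own number on average, a hint from the data and not the design. Replicate 2 had the longest list in all 6 lines. The deepest libraries, HIF-2a/1a replicate 2 (0.625 fragments per base) and HIF-2a replicate 2 (0.536), had 20808 and 20651 peaks. HIF-2a replicate 3, at 0.253, had 5906. List length did not follow depth in every library. HIF-2a KIN replicate 1 had 3984 peaks at 0.378 fragments per base and HIF-1a/2a replicate 2 had 18999 at 0.284. A region missing from a list may still be bound.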
